A study of Mus musculus with 6 samples.

Results

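Aminoacyl-tRNA synthetases were described here as 36 named genes, 20 for the cytosolic enzymes and 16 for the mitochondrial ones, out of 38924 rows of a table of gene expression. The genes were taken by symbol, the mitochondrial ones carrying the suffix 2. All 36 had a row, and all 36 reached the level that a gene needed to be tested, which was 1 RPKM or more in no fewer than 2 of the 6 libraries. RPKM, the read count scaled to exon length and to the reads mapped, allows levels of different genes to be compared.

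The RNA came from GFP+ Lin- c-kit+ bone marrow cells, a sort for transduced progenitors without lineage markers, from C57BL/6 mice that had been transplanted with transduced marrow. Mock mice received marrow carrying GFP alone and were sampled at 4 weeks (2 libraries). Preleukemia mice received Evi1-GFP marrow and were sampled at 4 weeks (2 libraries), and leukemia mice received Evi1-GFP marrow and were sampled at 6 months (2 libraries). All 3 groups thus shared the transplantation, the vector's GFP and the sort, and Evi1, a transcription factor of the Mecom locus, set the other groups apart from mock. No GFP group at 6 months is among the samples, so the time after transplantation and leukemia cannot be told apart. Whether the libraries of 1 group stem from different mice is not in the labels, so the p-values rest on the spread between libraries and that spread may be technical.

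Most synthetases join a single amino acid to its tRNAs, the step that feeds the ribosome. The cytosolic enzymes fall into class I and class II by the fold of the catalytic domain, and several of them are held in a multisynthetase complex with the scaffold proteins Aimp1, Aimp2 and Eef1e1. The mitochondrial enzymes are encoded in the nucleus, imported, and charge the tRNAs that translate the few proteins of the mitochondrial genome. Gars and Kars serve both compartments from a single gene and are counted with the cytosolic set. Several cytosolic synthetase genes are known targets of Atf4, the transcription factor that is induced when amino acids run short.

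Promoter sequences are shown because Aars and 4 other cytosolic genes hold a motif of the amino acid response. Aars had the largest cytosolic decrease in leukemia with all libraries fitted. RefSeq promoter windows (GRCm38.p6) of 250 bases before and 50 bases after the start were found for 13 of the 20 cytosolic and 14 of the 16 mitochondrial genes. Cars, Hars, Lars, Nars, Rars, Vars, Wars, Hars2 and Pars2 had no entry. On both strands, TGATGNAA, the motif bound by Atf4 together with C/EBP factors, was found in 5 of 13 cytosolic windows, in 0 of 14 mitochondrial windows and in 3.97% of 32851 promoters of the same length. The lines give 30 bases of each such cytosolic promoter, on the strand of the gene, with the match in capitals. Yars held the motif as written, and the others held its reverse complement.
Aars chr8:111033840-111033869 (+), match from base 10: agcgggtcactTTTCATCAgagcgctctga
Gars chr6:55037960-55037989 (+), match from base -30: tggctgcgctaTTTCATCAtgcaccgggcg
Iars chr13:49682126-49682155 (+), match from base 8: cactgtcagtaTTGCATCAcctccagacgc
Tars chr15:11399655-11399684 (-), match from base -15: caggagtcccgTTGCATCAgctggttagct
Yars chr4:129189895-129189924 (+), match from base 4: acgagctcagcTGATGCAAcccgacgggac

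The subunits of the cytosolic phenylalanyl enzyme, Farsa and Farsb, are shown as well, because their transcripts moved apart. The 150 bases before each start hold CCGGAAG, the core motif of ETS factors, in Farsa (as its reverse complement) and CACGTG, the E-box bound by Myc and related factors, in Farsb.
Farsa chr8:84856836-84856985 (+): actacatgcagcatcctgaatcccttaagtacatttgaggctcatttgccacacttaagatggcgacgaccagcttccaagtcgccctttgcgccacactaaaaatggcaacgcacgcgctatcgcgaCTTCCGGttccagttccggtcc
Farsb chr1:78488898-78489047 (-): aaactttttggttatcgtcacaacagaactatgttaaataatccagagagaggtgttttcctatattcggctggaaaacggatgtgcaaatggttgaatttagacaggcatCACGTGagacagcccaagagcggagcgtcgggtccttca
Among the windows, CCGGAAG was found in 5 of 13 cytosolic genes (Farsa, Gars, Kars, Mars and Sars), in 4 of 14 mitochondrial genes (Cars2, Mars2, Rars2 and Sars2) and in 8.86% of all promoters. CACGTG was found in 4 of 13 cytosolic genes (Aars, Farsb, Iars and Tars), in 1 of 14 mitochondrial genes (Ears2) and in 7.15% of all promoters. No match of 1 motif overlapped a match of another in these genes. A match describes the letters of the window and is not a measured binding site.

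The 6 libraries held an estimated 16922992 to 21641740 reads, as recovered from the steps between low RPKM values. With these totals 3 reads on 1 kb of exon were worth 0.139 to 0.177 RPKM. Mecom, the gene that holds Evi1, was at 0.774 and 0.805 RPKM in the mock libraries, at 78.0 and 80.1 in those of preleukemia and at 61.7 and 71.5 in those of leukemia, as the labels have it. Kit, the receptor of the sort, ran from 46.8 to 69.2 RPKM and fell in leukemia against mock (-0.39 on the log2(RPKM + 1) scale used for all fold changes, limma adjusted p = 0.0472). That call was lost without mock library 1 (0.0706), without leukemia library 1 (0.146) or 2 (0.225), and without preleukemia library 1 (0.0967) or 2 (0.0965). Cd34, a marker of progenitors, averaged 127 RPKM in mock, 55.3 in preleukemia and 113 in leukemia. It fell from mock to preleukemia (-1.19, adjusted p = 0.00945; 0.0711 without preleukemia library 2). It rose from preleukemia to leukemia (1.02, adjusted p = 0.0162; 0.108 without leukemia library 1 and 0.113 without preleukemia library 2). Markers of other cell types differed between the groups too. The summed level of 10 neutrophil genes was 12.7 to 18.04 RPKM in mock, 3879 to 8361 in preleukemia and 409.9 to 714.6 in leukemia. Most of this in the Evi1 groups was S100a8 and S100a9, at 227 and 373, and 173 and 284 RPKM in leukemia. Against mock, 7 of the 10 were called higher in preleukemia and 3 in leukemia, by limma. Ly6g and Mmp8 were lower in both leukemia libraries than in both mock libraries (-0.96 each, not passed). The summed level of 9 erythroid genes was 138 to 290 RPKM in mock, 119 to 184 in preleukemia and 31.1 to 40.4 in leukemia. Car1 alone was at 174 and 73.4 RPKM in mock. Against mock, 6 of the 8 erythroid genes tested were called lower in leukemia and 0 higher. In preleukemia 0 were called lower and 1 higher, Hba-a1 (log2 fold change 2.06, limma adjusted p = 0.0316). The sum of 8 B-lymphoid genes was 41.3 to 43.7, 17.9 to 19.6 and 11.9 to 12.5. Of the 6 tested, 5 were called lower and 1, Cd79b, higher in both Evi1 groups against mock. The 7 monocyte and macrophage genes summed to 329 to 460, 310.1 to 347.0 and 82.7 to 114 RPKM. Most of this was Ly6c2 in mock and preleukemia, but not in leukemia, where Ly6c2 was at 5.68 and 34.8 RPKM. The other 6 summed to 51.9 and 69.2 RPKM in mock, 46.2 in each preleukemia library, and 77.0 and 78.7 in leukemia. Of the 5 genes of this list that were tested, Cd68, a macrophage marker, rose from mock to leukemia (14.6 to 47.4 RPKM on average, log2 fold change 1.64, limma adjusted p = 0.000763). Ccr2 fell (11.9 to 3.62 RPKM on average, -1.48, limma adjusted p = 0.000499), as did Ly6c2 (-4.42, 0.00572). The other 2 did not pass. The 7 mast cell and basophil genes summed to 60.3 to 94.6, 23.0 to 25.9 and 18.5 to 18.8, with Tpsb2 and Cma1 at 0 in every library, and the 6 T and NK genes stayed at or below 0.547 RPKM. The part of these cells in the synthetase results was not tested, and in bulk samples fewer cells of a type and less RNA per cell cannot be told apart.

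Cytosolic synthetase transcripts were present at mean levels of 6.08 to 52.3 RPKM. The highest mean RPKM over the 6 libraries was that of Kars, the lysyl enzyme (chr8:111993443-112011323, minus strand). Its level was 58.9 and 55.4 RPKM in mock, 53.7 and 46.2 in preleukemia, with 53.7 and 46.2 in leukemia. The lowest was that of Cars, the cysteinyl enzyme, with a mean of 6.08 RPKM. Between them the mean levels ran from Nars (48.4 RPKM), Vars (47.8) and Dars (40.7) down to Aars (10.3) and Yars (7.23). The mitochondrial genes mostly lay lower, with 1 gene far above the rest. Lars2 had a mean of 354.9 RPKM, Cars2 followed at 14.1, and the lowest was Wars2, the tryptophanyl enzyme, whose 6 values were 2.02 and 1.60 in mock, 1.789 and 1.803 in preleukemia, with 1.83 and 1.65 in leukemia. The median RPKM of the 20 cytosolic genes was 23.9 and 20.8 in mock, 21.1 and 20.01 in preleukemia, with 19.7 and 18.4 in leukemia. The median of the 16 mitochondrial genes was 7.90 and 6.37, 7.70 and 7.44, and 7.30 and 6.62. Cytosolic medians of leukemia thus lay below those of the other groups, while the mitochondrial medians overlapped between all 3. The summed RPKM of the cytosolic genes was 5.11 and 5.52 times that of the mitochondrial genes without Lars2 in mock, 4.89 and 4.80 times in preleukemia and 4.77 times in each leukemia library.

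**Figure D1:**
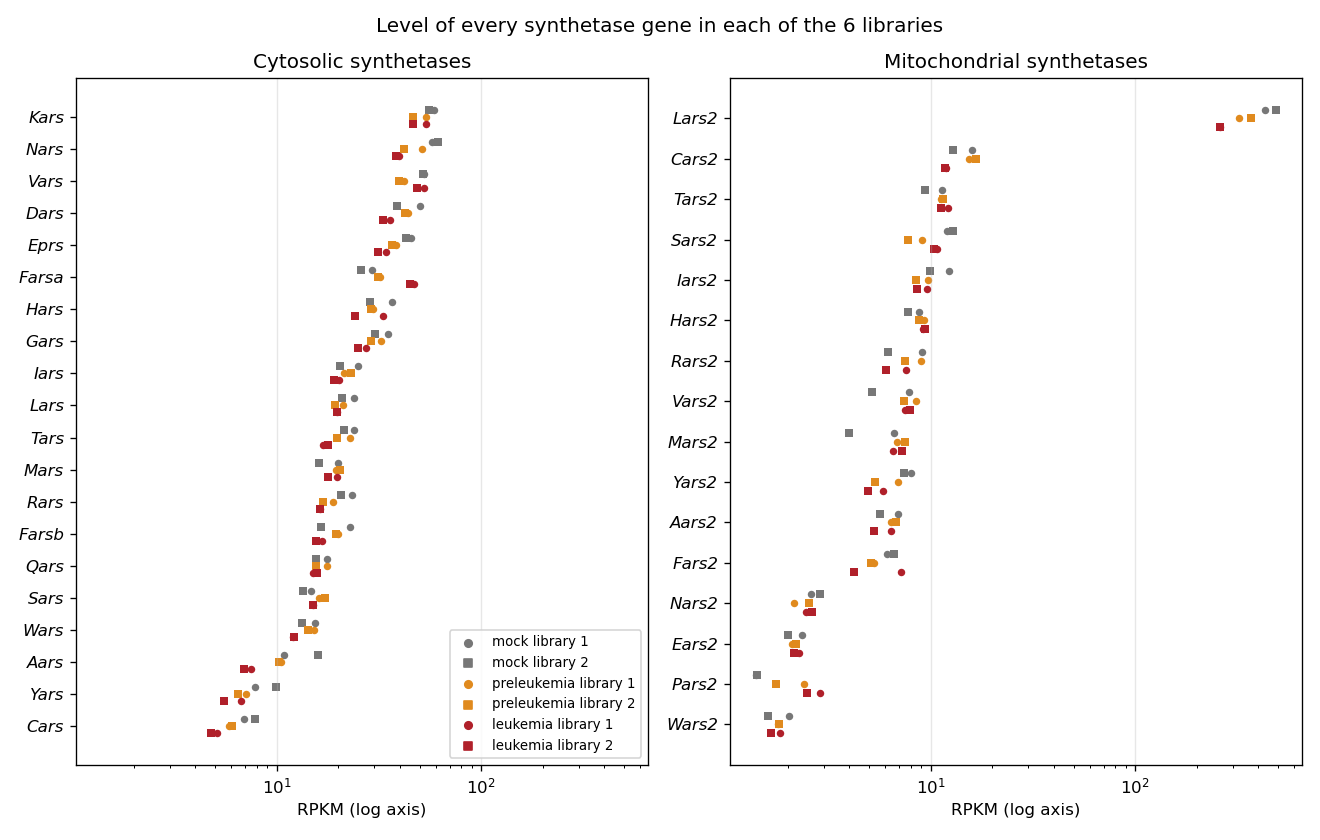
RPKM of every synthetase gene (log axis) in each library, cytosolic genes on the left and mitochondrial genes on the right, ordered by mean level. Circles are library 1 and squares library 2 of mock (gray), preleukemia (orange) and leukemia (red). Lars2 stands above every other gene in all 6 libraries, and the red points of most cytosolic genes lie to the left of the gray ones.

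Leukemia against mock asks what differed between Evi1 leukemia at 6 months and GFP cells at 4 weeks. In this comparison 5 of the 20 cytosolic synthetase genes fell (Aars, Cars, Eprs, Nars and Rars), 1 rose (Farsa) and 14 did not pass, by limma on log2(RPKM + 1) with a Benjamini-Hochberg adjusted p under 0.05. Over all 10958 genes tested, 13.5% were lower, 12.1% higher and 25.6% called in either direction. The share called, 6 of 20, was thus near the background. The median log2 fold change of the 20 genes was -0.24 (range -0.79 to 0.72), against -0.04 over all genes tested, and 17 of the 20 were below 0. Both leukemia libraries lay below both mock libraries for 13 genes (65.0%, against 35.5% of all genes tested), and above both for 2, Farsa and Sars (against 30.0% of all genes).

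Aars, the alanyl enzyme (chr8:111033144-111057664, plus strand), had the largest decrease of the cytosolic set with all libraries fitted. Its level was 10.9 and 15.9 RPKM in mock, 10.5 and 10.2 in preleukemia, with 7.51 and 6.88 in leukemia. The leukemia libraries were the lowest of the 6, and mock library 2 was far above mock library 1. Most genes had the opposite order, with mock library 1 above mock library 2 for 16 of 20 cytosolic and 11 of 16 mitochondrial genes. The means were 13.4 ± 3.56 RPKM in mock, 10.4 ± 0.219 in preleukemia and 7.20 ± 0.447 in leukemia (SD, 2 libraries each). Its log2 fold change from mock to leukemia was -0.79 ± 0.17 (SE; limma adjusted p = 0.0191). The exons of Aars share 1326 bases on the same strand with Exosc6, which was not analysed here, so reads of that stretch could belong to either gene.

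Nars, the asparaginyl enzyme (chromosome 18), was at 57.6 and 61.8 RPKM in mock, 51.1 and 41.9 in preleukemia, with 39.5 and 38.3 in leukemia. The 3 groups did not overlap and were ordered mock, preleukemia, leukemia. From mock to leukemia the mean went from 59.7 ± 2.93 to 38.9 ± 0.818 RPKM (SD, 2 libraries each), a log2 fold change of -0.61 ± 0.12 (SE; limma adjusted p = 0.0125). Cars (chr7:143557230-143600090, minus strand) was at 6.91 and 7.83 RPKM in mock, 5.86 and 6.04 in preleukemia, with 5.08 and 4.74 in leukemia. It kept the same order of groups, and its log2 fold change was -0.50 ± 0.12 (SE; limma adjusted p = 0.0242).

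Eprs and Rars are both members of the multisynthetase complex. Eprs (chr1:185363044-185428360, plus strand), a single protein that charges both glutamate and proline, was at 45.1 and 42.8 RPKM in mock, 38.5 and 36.8 in preleukemia, with 34.3 and 31.3 in leukemia. From mock to leukemia its log2 fold change was -0.41 ± 0.10 (SE; limma adjusted p = 0.0231). Rars (chr11:35808381-35834506, minus strand), the arginyl enzyme, was at 23.3 and 20.6, 18.9 and 16.9, and 16.2 and 16.3 RPKM in the same order of libraries. The log2 fold change was -0.41 ± 0.11 (SE; limma adjusted p = 0.0360). In both genes the 3 groups were again separate, with preleukemia between the others.

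The calls of these 5 decreases needed both leukemia libraries, while the folds changed little when either of these was left out. Without leukemia library 1 the limma adjusted p was 0.0769 for Aars, 0.105 for Cars, 0.0769 for Eprs, 0.0671 for Nars and 0.160 for Rars. Without leukemia library 2 it was 0.112, 0.161, 0.167, 0.0834 and 0.167 in the same order, so that Farsa was then the single cytosolic gene called. The log2 fold changes were -0.85, -0.54, -0.48, -0.63 and -0.41 without leukemia library 1 and -0.74, -0.46, -0.35, -0.58 and -0.42 without leukemia library 2. Over all genes tested the number called fell from 2809 to 1071 and 1046 in these fits. Cars, Eprs and Rars did not pass either without preleukemia library 1 (adjusted p = 0.0619, 0.0609 and 0.0732) or without preleukemia library 2 (0.0619, 0.0608 and 0.0728), which enter this comparison through the spread alone. Rars did not pass without mock library 1 (0.0543), and without mock library 2 the count of cytosolic genes called was 10. The sign of each decrease was the same in all of these fits. The fold of Aars moved more with the mock libraries, to -1.05 without mock library 1 and -0.536 without mock library 2. The latter is a smaller decrease than that of Nars with any library left out (-0.655 to -0.556).

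**Figure D2:**
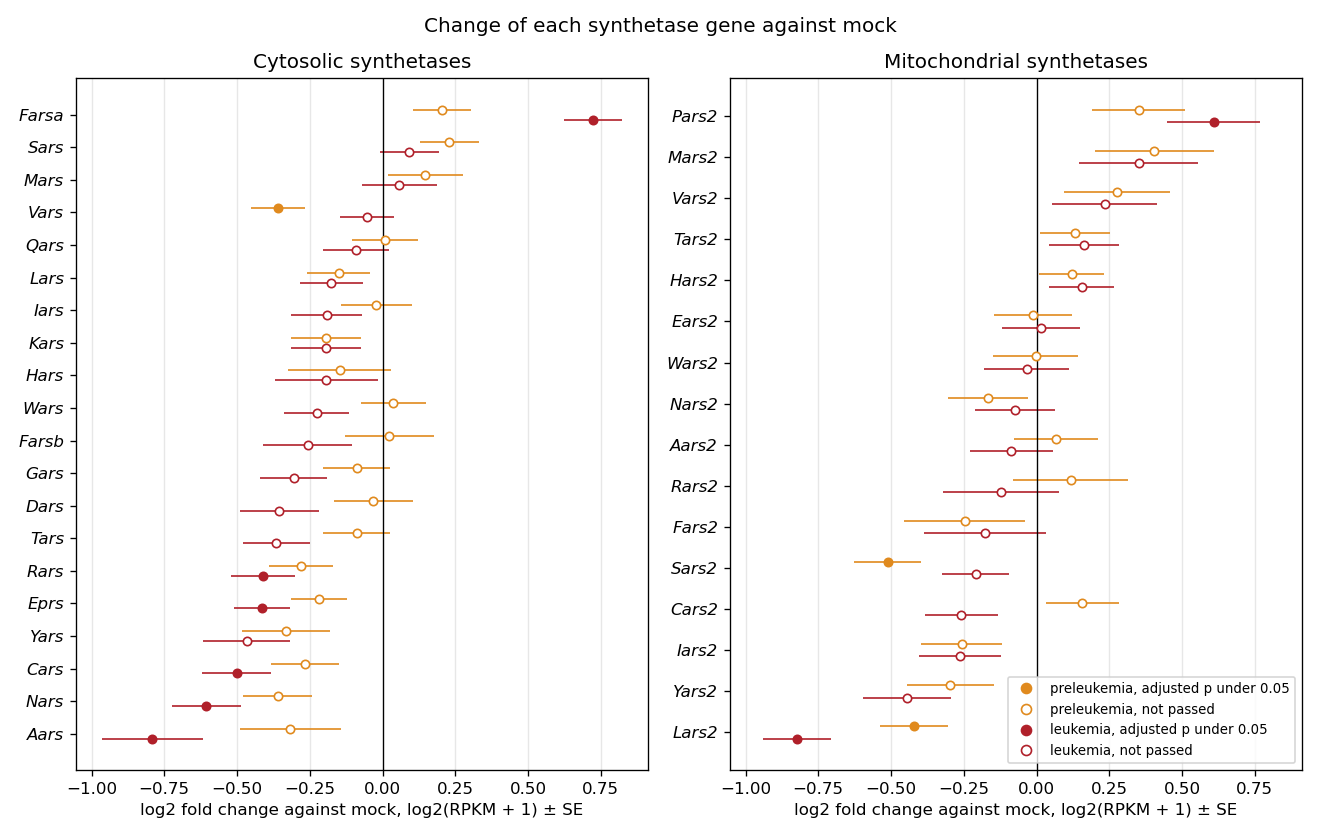
Log2 fold change against mock ± SE for each cytosolic (left) and mitochondrial (right) synthetase gene, in preleukemia (orange) and leukemia (red), ordered by the leukemia value. Filled points have a limma adjusted p under 0.05. Of the cytosolic genes 17 lie below 0 in leukemia, and Farsa lies at 0.72.

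The other cytosolic genes did not pass in leukemia against mock. The nearest were Tars, the threonyl enzyme (log2 fold change -0.37, limma adjusted p = 0.0593), Yars, the tyrosyl enzyme (-0.47, 0.0625), Gars, the glycyl enzyme (-0.31, 0.0966), and Dars, the aspartyl enzyme (-0.36, 0.09999). In each of these 4 genes both leukemia libraries lay below both mock libraries. By class, 2 of the 9 class I genes fell (Cars and Rars; median -0.19), and of the 10 class II genes 2 fell and 1 rose (Aars and Nars, and Farsa; median -0.28). Eprs carries a domain of each class and was left out of both lists. Of the 8 enzymes of the multisynthetase complex 2 fell, with a median of -0.19, and 6 of the 8 were separate from mock and lower. Of all genes tested 13.5% fell and 35.5% were separate and lower. Its scaffold gene Aimp1 was at 32.8 and 29.6 RPKM in mock, 30.2 and 27.9 in preleukemia, with 26.1 and 25.5 in leukemia, with an adjusted p of 0.0969 for leukemia against mock. None of the 3 scaffold genes passed in limma in any comparison, and at an unadjusted p under 0.05 the counts were 1 in leukemia against mock and 0 in the other 2.

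The genes with a TGATGNAA match can be set beside those without one. In leukemia against mock the 5 genes with a match had a median log2 fold change of -0.37 (range -0.79 to -0.19), and both leukemia libraries lay below both mock libraries in all 5. The 8 genes whose window held no match had a median of -0.14 (range -0.41 to 0.72), with 3 of the 8 separate and lower. The 7 genes without a promoter entry had a median of -0.23, with 5 separate and lower. Over all genes tested 35.5% were separate and lower, so that the genes without a match were near that share. Of the 5 genes with a match 1, Aars, passed the test in leukemia against mock. In preleukemia against mock the 5 genes with a match had a median of -0.09, with 2 separate and lower. The 8 genes without a match had a median of 0.02, with 2 separate and lower. The 7 without a promoter entry had the lowest median, -0.27, with 4 separate and lower. Over all genes tested this share was 25.5% in preleukemia. These counts describe the lists, and the difference between them was not tested.

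Farsa was the 1 cytosolic gene that rose. It encodes the catalytic alpha subunit of phenylalanyl-tRNA synthetase (chr8:84856989-84869257, plus strand), an enzyme built from equal numbers of alpha and beta subunits, the beta subunit being encoded by Farsb (chr1:78417975-78488897, minus strand). Farsa was at 29.1 and 25.8 RPKM in mock, 32.0 and 31.4 in preleukemia, with 47.1 and 44.6 in leukemia. The groups did not overlap, and both leukemia libraries were well above the other 4. The mean was 27.4 ± 2.38 RPKM in mock, 31.7 ± 0.455 in preleukemia and 45.9 ± 1.76 in leukemia (SD, 2 libraries each). The log2 fold change was 0.72 ± 0.10 from mock to leukemia (SE; limma adjusted p = 0.00383), and it stayed called in leukemia against mock under each of the 15 alternatives run (0.64 to 0.81 with 1 library left out).

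Farsb did not follow it. Its level was 22.8 and 16.5 RPKM in mock, 19.96 and 19.5 in preleukemia, with 16.6 and 15.6 in leukemia. The mock libraries spanned the preleukemia values and overlapped those of leukemia, and the log2 fold change from mock to leukemia was -0.26 ± 0.15 (SE; limma adjusted p = 0.253). The ratio of RPKM of Farsa to Farsb within a library was 1.28 and 1.56 in mock, 1.61 in each preleukemia library, and 2.85 and 2.86 in leukemia. The transcripts of the subunits were therefore in another proportion in both leukemia libraries than in the other 4. The exons of Farsb share 248 bases with Sgpp2 on the opposite strand, and Sgpp2 was at 0.0509 RPKM or less in every library.

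**Figure D3:**
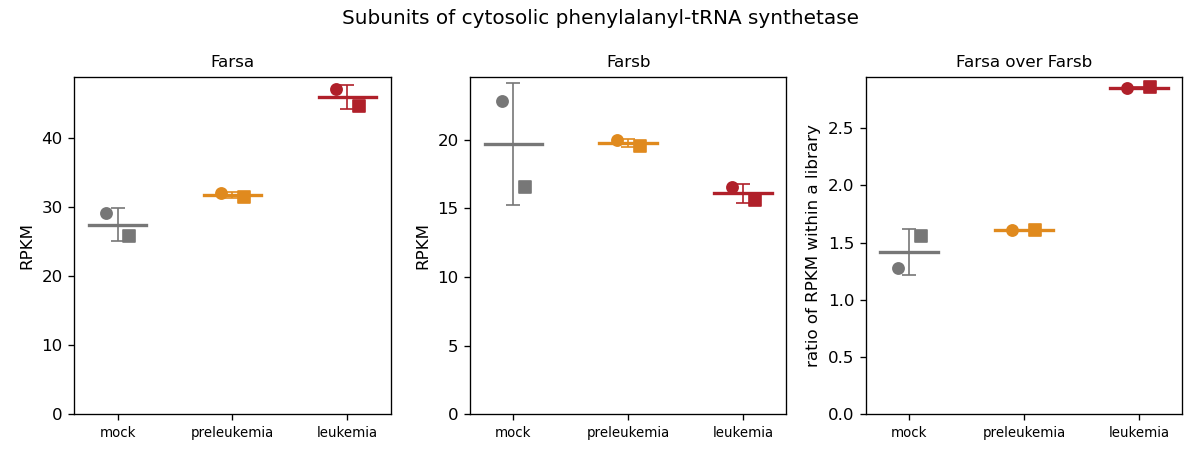
RPKM of Farsa and Farsb, and their ratio within each library, in mock, preleukemia and leukemia. Circles are library 1 and squares library 2, the line is the mean and the bar its SD (n = 2). Farsa is highest in the leukemia libraries (47.1 and 44.6 RPKM), Farsb is not, and the ratio is 2.85 and 2.86 there.

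Preleukemia against mock compares Evi1 with GFP cells at the same 4 weeks. Of the 20 cytosolic genes 1 fell, Vars, 0 rose and 19 did not pass in limma (at an unadjusted p under 0.05, 3 were lower and 0 higher). Over all genes tested 6.02% were lower, 13.5% higher and 19.5% called either way, or 1480 higher and 660 lower. The split was 1180 and 1052 after quantile normalization and 1241 and 875 with TMM-like scaling. The median log2 fold change of the cytosolic genes was -0.12 (range -0.36 to 0.23), against 0.05 over all genes tested, and 14 of the 20 were below 0. Both preleukemia libraries lay below both mock libraries for 8 genes (40.0%, against 25.5% of all genes) and above both for 2 (against 37.2%).

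Vars encodes the valyl enzyme (chr17:35000987-35016322, plus strand). It was at 52.6 and 52.0 RPKM in mock, 41.8 and 39.4 in preleukemia, with 52.5 and 48.2 in leukemia. The preleukemia libraries were the lowest, and the leukemia values reached those of mock. Its log2 fold change was -0.36 ± 0.09 from mock to preleukemia (SE; limma adjusted p = 0.0404) and -0.05 from mock to leukemia (adjusted p = 0.696). Vars did not pass without preleukemia library 1 (0.141) or 2 (0.243), without mock library 2 (0.0536), or without leukemia library 1 (0.0817) or 2 (0.0812). For Aars, Cars, Eprs, Nars and Rars the log2 fold change from mock to preleukemia was -0.32 (adjusted p = 0.237), -0.27 (0.157), -0.22 (0.154), -0.36 (0.0753) and -0.28 (0.119). The preleukemia and the leukemia comparison share the mock libraries, so these values are not independent of those above.

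Leukemia against preleukemia compares the 2 Evi1 groups, at 6 months and 4 weeks. Farsa rose (log2 fold change 0.52, limma adjusted p = 0.0164), and the other 19 cytosolic genes did not pass. Over all genes tested 5.27% were higher, 13.0% lower and 18.3% called either way. This imbalance, 578 higher and 1428 lower, was 966 and 937 after quantile normalization. Farsa did not pass without leukemia library 1 (0.131) or 2 (0.0759), or without preleukemia library 1 (0.0947) or 2 (0.130). At an unadjusted p under 0.05, 2 cytosolic genes were higher and 2 lower. The median of the 20 genes was -0.15 against -0.09 over all genes. For 12 genes both leukemia libraries lay below both preleukemia libraries (against 46.0% of all genes), and for 2, Farsa and Vars, above both (against 24.7%). Without mock library 1 or mock library 2, which enter this comparison through the spread alone, the count of cytosolic genes called was 5.

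The mitochondrial set was close to the median of all genes, with few calls. In leukemia against mock 1 of 16 fell (Lars2), 1 rose (Pars2) and 14 did not pass in limma, a share of 12.5% against the 25.6% of all genes tested. The median log2 fold change was -0.08 (range -0.82 to 0.61), and both leukemia libraries were below both mock libraries for 5 genes (31.2%, against 35.5% of all genes) and above for 2 (12.5%, against 30.0%). In preleukemia against mock 2 fell (Lars2 and Sars2) and 0 rose, with a median of 0.03, where 6.02% of all genes fell, 13.5% rose and 19.5% were called either way, and at an unadjusted p under 0.05 the same count held, 2 lower and 0 higher. In leukemia against preleukemia, where 18.3% of all genes were called, 0 of 16 passed in limma (at an unadjusted p under 0.05, 2 were lower and 1 higher), with a median of -0.02 and a range of -0.42 to 0.30. The value of -0.42 belonged to Cars2, the mitochondrial cysteinyl enzyme, with an adjusted p of 0.0645.

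Pars2, the mitochondrial prolyl enzyme (chr4:106651069-106655282, plus strand), was among the lowest genes of the set. Its level was 1.39 and 1.41 RPKM in mock, 2.41 and 1.75 in preleukemia, with 2.86 and 2.47 in leukemia. With the estimated read totals these values correspond to 93 and 88, 126 and 117, and 186 and 150 reads, the fewest of any synthetase gene. The leukemia libraries were the highest, and the log2 fold change from mock to leukemia was 0.61 ± 0.16 (SE; limma adjusted p = 0.0337). Pars2 did not pass without leukemia library 1 (0.174) or 2 (0.110), or without mock library 1 (0.0537) or 2 (0.0577). Eprs, which charges the cytosolic tRNA for the same amino acid, fell in this comparison.

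Sars2, the mitochondrial seryl enzyme (chr7:28741992-28753871, plus strand), was at 11.9 and 12.8 RPKM in mock, 9.03 and 7.74 in preleukemia, with 10.7 and 10.4 in leukemia. Its preleukemia values were the lowest, and the leukemia values lay between. The log2 fold change from mock to preleukemia was -0.51 ± 0.11 (SE; limma adjusted p = 0.0256), and from mock to leukemia -0.21 (adjusted p = 0.222). Sars2 did not pass without preleukemia library 1 (0.0739) or 2 (0.192), mock library 2 (0.0509), or leukemia library 1 (0.0648) or 2 (0.0646). Its cytosolic counterpart Sars was at 14.7 and 13.4 RPKM in mock and 16.1 and 17.3 in preleukemia, a log2 fold change of 0.23 (adjusted p = 0.157).

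Lars2, the mitochondrial leucyl enzyme (chr9:123366927-123462666, plus strand), was at 433 and 488 RPKM in mock, 320.2 and 368 in preleukemia, with 259.4 and 259.8 in leukemia. The 3 groups were separate and in the order mock, preleukemia, leukemia. The mean was 461 ± 38.9 RPKM in mock, 344 ± 34.0 in preleukemia and 259.6 ± 0.262 in leukemia (SD, 2 libraries each). Its log2 fold change was -0.82 from mock to leukemia (limma adjusted p = 0.00411), which passed in each of the 15 alternatives, and -0.40 from preleukemia to leukemia (0.0575). From mock to preleukemia it was -0.42 ± 0.12 (SE; limma adjusted p = 0.0487), which did not pass without preleukemia library 1 (0.235) or 2 (0.112), mock library 2 (0.135), or leukemia library 1 (0.0970) or 2 (0.0959).

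The level of Lars2 is uncertain, since part of its 3′ UTR is shared with other genes. In the transcript of 3894 bases, whose 3′ UTR begins at base 2909, bases 3278 to 3349 matched 72 bases of the antisense gene Gm15564 at 98.6% identity. Bases 3233 to 3329 matched 97 bases of the gene AA474408 at 94.8% identity. The last 30 bases of the stretch shared with Gm15564 are shown as an example of that stretch, and they run past the end of the AA474408 match. As background, these bases resemble large-subunit ribosomal RNA, which was not compared here.
Lars2 chr9:123462090-123462119 (+), GRCm38: gtgagctgggattagaccgtcgtgagacag
AA474408 was at 48.1 and 64.6 RPKM in mock, 39.8 and 48.2 in preleukemia, with 30.1 and 32.0 in leukemia, and its log2 fold change from mock to leukemia was -0.83 (limma adjusted p = 0.0130; 0.0771 without leukemia library 1 and 0.0629 without leukemia library 2). The ratio of RPKM of Lars2 to AA474408 was 9.002 and 7.55 in mock, 8.05 and 7.64 in preleukemia, with 8.62 and 8.12 in leukemia, so the groups overlapped in the ratio. Gm15564 did not follow Lars2 from mock to preleukemia. It was at 7.83 and 8.50 RPKM in mock, 8.78 and 10.6 in preleukemia, with 4.81 and 6.76 in leukemia. Its log2 fold change from mock was 0.22 in preleukemia (limma adjusted p = 0.396) and -0.45 in leukemia (0.0986). AA474408 and Gm15564 were picked after the values were seen. The part of this shared sequence in the Lars2 values was not tested.

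**Figure D4:**
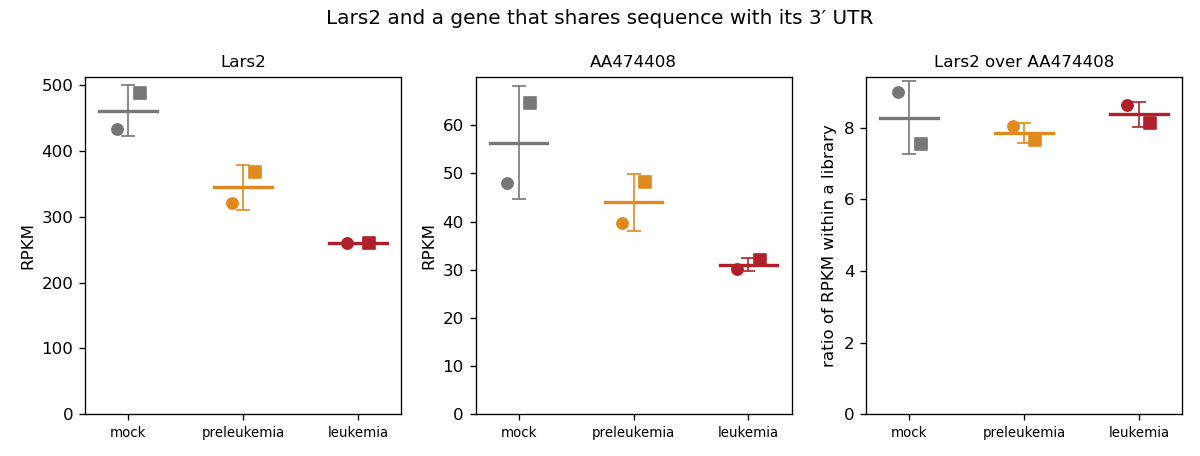
RPKM of Lars2 and of AA474408, a gene that shares sequence with the Lars2 3′ UTR, and the ratio of the 2 within each library. Circles are library 1 and squares library 2, the line is the mean and the bar its SD (n = 2). Both genes are lowest in leukemia, and the ratio runs from 7.55 to 9.002 with the groups overlapping.

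Other shared exon bases also limit single genes, because nothing in the kit's name says that strand was kept. Hars and Hars2, the cytosolic and mitochondrial histidyl genes, share 195 bases on opposite strands. Mars, the methionyl gene, shares 68 bases with Ddit3, and Iars2 shares 2034 bases with Rab3gap2, in each case on opposite strands. Cars2 shares 422 bases with Naxd and Fars2 501 with Nrn1 in the same way. A processed pseudogene, Gm4849, matched 1656 bases of Iars at 96.0% identity. None of these 7 synthetase genes was called in any comparison. Cars, which was, shares 211 bases with Gm15580, a pseudogene listed at 0 RPKM in every library.

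The genes around the synthetases were mostly without calls. For comparison, 19.5% of all genes tested were called in preleukemia against mock and 25.6% in leukemia against mock. The share was 18.3% in leukemia against preleukemia, and the lists are small. Of 12 genes of tRNA maturation and export, Tsen34, a subunit of the tRNA splicing endonuclease, rose in preleukemia. It was at 5.75 and 5.18 RPKM in mock, 8.27 and 8.15 in preleukemia, with 7.09 and 7.25 in leukemia, and the log2 fold change from mock to preleukemia was 0.51 (limma adjusted p = 0.0228). It did not pass without preleukemia library 1 (0.133) or 2 (0.147), or without leukemia library 1 (0.0628) or 2 (0.0627). None of the 12 passed in limma in leukemia against mock (4 at an unadjusted p under 0.05) or in leukemia against preleukemia (0). The 9 translation elongation factors had 0 calls in all 3 comparisons in limma, with 2 lower at an unadjusted p under 0.05 in leukemia against mock and 1 lower in each of the others. The 7 tested genes of tRNA editing and deacylation had 0 calls, and 0 at an unadjusted p under 0.05.

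Some amino acid transporters fell as well. Of the 7 tested, 3 fell in preleukemia (Slc7a5, Slc7a1 and Slc38a1), 2 fell in leukemia against mock (Slc7a5 and Slc7a1), and 0 passed in leukemia against preleukemia in limma (at an unadjusted p under 0.05, 2 were higher and 1 lower). Over all genes tested, 6.02% were lower in preleukemia and 13.5% in leukemia against mock. Slc7a5, the light chain of the leucine transporter, was at 7.41 and 6.42 RPKM in mock, 4.70 and 3.63 in preleukemia, with 2.95 and 2.97 in leukemia. The groups were separate, with log2 fold changes from mock of -0.62 in preleukemia (limma adjusted p = 0.0311) and -0.997 in leukemia (0.00497). Slc7a1, a carrier of arginine and lysine, was at 14.5 and 20.99, 7.58 and 8.67, and 9.96 and 8.80 RPKM, with log2 fold changes of -1.02 (0.0117) and -0.83 (0.0180). Slc38a1, a glutamine transporter, was at 30.6 and 33.4, 24.7 and 23.3, and 30.2 and 28.3 RPKM, with -0.40 in preleukemia (0.0346). The leukemia call of Slc7a5 held with each library left out. Its preleukemia call did not pass without mock library 1 (0.0516), preleukemia library 1 (0.0633) or 2 (0.201), or leukemia library 1 (0.0694) or 2 (0.0691). Slc7a1 did not pass in preleukemia without preleukemia library 1 (0.0809) or 2 (0.0667), nor in leukemia without leukemia library 1 (0.0665) or 2 (0.111). Slc38a1 did not pass without mock library 2 (0.0593), preleukemia library 1 (0.131) or 2 (0.222), or leukemia library 1 (0.0767) or 2 (0.0763).

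Genes of the amino acid stress response, the Atf4 pathway to which several synthetase genes belong, also fell in part. Of 19 tested, with the synthetases left out, 7 fell and 1 rose in leukemia against mock (median log2 fold change -0.32 against -0.04 over all genes). In preleukemia against mock 5 fell and 2 rose (median -0.09 against 0.05), and in leukemia against preleukemia 3 fell and 0 rose (median -0.16 against -0.09). Of all genes tested, 25.6% were called in leukemia against mock (13.5% lower), 19.5% in preleukemia against mock (6.02% lower) and 18.3% in leukemia against preleukemia (13.0% lower). Asns, asparagine synthetase, which makes the amino acid that Nars charges, was at 7.65 and 4.81 RPKM in mock, 3.50 and 4.51 in preleukemia, with 0.174 and 0.186 in leukemia. Both leukemia libraries were just above the value of 3 reads on 1 kb of exon, 0.143 and 0.153 RPKM there, and the log2 fold change was -2.59 from mock (limma adjusted p = 0.000720) and -2.08 from preleukemia (0.00264), called with each library left out. The ratio of RPKM of Nars to Asns was 7.54 and 12.8 in mock, 14.6 and 9.29 in preleukemia, with 227 and 206 in leukemia.

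Atf4 itself was at 134 and 206 RPKM in mock, 97.5 and 104 in preleukemia, with 97.6 and 91.6 in leukemia. Its log2 fold change was -0.72 in preleukemia (limma adjusted p = 0.0427; -0.41 without mock library 2) and -0.81 in leukemia against mock (0.0241). The leukemia value was -0.50 without mock library 2, and it did not pass without leukemia library 1 (0.0899) or 2 (0.124), or without preleukemia library 1 (0.0521) or 2 (0.0519). Mock library 2 was the highest for Atf4 as it was for Aars. Atf3, a stress-induced factor, was at 10.9 and 38.1 RPKM in mock, 4.50 and 2.40 in preleukemia, with 5.71 and 2.16 in leukemia. Its log2 fold change was -2.32 in preleukemia (0.0393), which did not pass without mock library 2 (-1.46, 0.0976), preleukemia library 1 (0.101) or preleukemia library 2 (0.210). The preleukemia call of Atf4 did not pass without preleukemia library 1 (0.182) or 2 (0.169), or without leukemia library 1 (0.0765) or 2 (0.0762). Atf5, a related factor, was at 5.64 and 7.60, 5.25 and 5.47, and 2.56 and 3.09 RPKM, with -0.99 in leukemia against mock (0.00717; 0.0557 without leukemia library 1). Against preleukemia it was -0.74, which did not pass without leukemia library 1 (0.163) or 2 (0.0742) or preleukemia library 1 (0.111) or 2 (0.153). Psat1, an enzyme of serine synthesis, was at 25.2 and 21.8, 17.2 and 16.0, and 15.4 and 14.3 RPKM, with -0.48 in preleukemia (0.0304) and -0.63 in leukemia (0.00983). Its preleukemia call did not pass without preleukemia library 1 (0.119) or 2 (0.201) or leukemia library 1 (0.0669) or 2 (0.0664), and its leukemia call did not without leukemia library 1 (0.0519) or 2 (0.0794). Pycr1, an enzyme of proline synthesis, rose instead. It was at 1.21 and 1.36 RPKM in mock, 3.15 and 2.20 in preleukemia, with 4.43 and 3.44 in leukemia, with 0.67 in preleukemia (0.0450) and 1.10 in leukemia (0.00724; 0.0550 without leukemia library 1). The preleukemia call of Pycr1 was not followed through the alternatives. Ddit4, an inhibitor of mTORC1 signalling, was at 13.0 and 17.6, 23.7 and 31.9, and 18.9 and 23.1 RPKM, and rose in preleukemia by 0.82 (0.0311). It did not pass without mock library 1 (0.0613), preleukemia library 1 (0.0579) or 2 (0.193), or leukemia library 1 or 2 (0.0507 each). Eif4ebp1, a repressor of cap-dependent translation, was at 29.7 and 29.9, 32.7 and 31.5, and 25.2 and 24.2 RPKM, with -0.36 from preleukemia to leukemia (0.0352). It did not pass without leukemia library 1 (0.163) or 2 (0.200), or without preleukemia library 1 (0.203) or 2 (0.179).

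**Figure D5:**
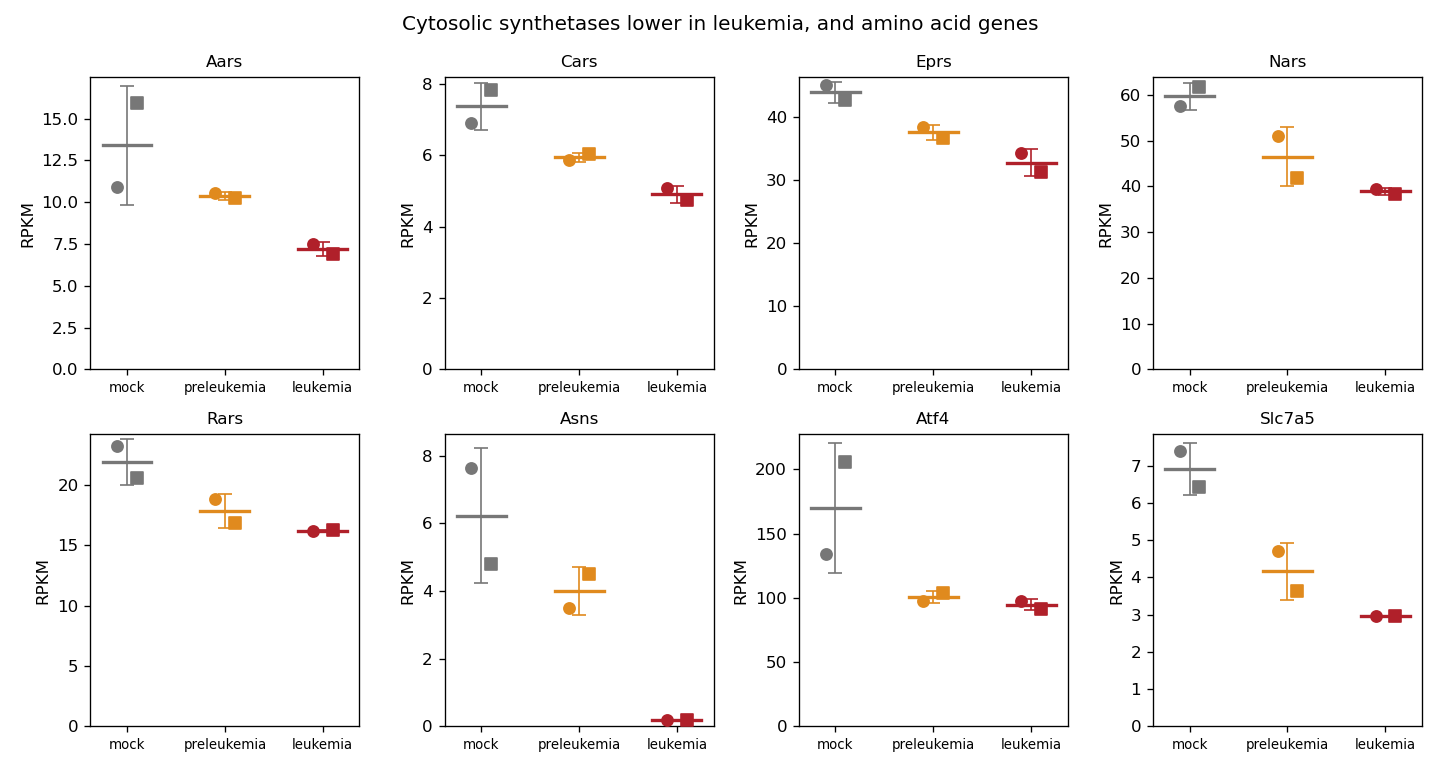
RPKM of the 5 cytosolic synthetase genes that fell in leukemia against mock (Aars, Cars, Eprs, Nars and Rars) and of Asns, Atf4 and Slc7a5, by group. Circles are library 1 and squares library 2, the line is the mean and the bar its SD (n = 2). Each gene is lower in both leukemia libraries than in both mock libraries, and Asns is at 0.174 and 0.186 RPKM in leukemia.

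Of the Myc list 3 genes were tested, namely Myc and Mycn, whose products are known to drive genes of protein synthesis, and their partner Max. Mycl did not reach the level needed, and Max did not pass in any comparison. Mycn was at 1.74 and 0.872 RPKM in mock, 6.28 and 4.67 in preleukemia, with 0 and 0.0309 in leukemia. It rose from mock to preleukemia (1.504 on the log2 scale) and fell from there to leukemia (-2.66) and from mock to leukemia (-1.16), by limma. The rise was lost without preleukemia library 1 (adjusted p = 0.0509), as was the decrease from mock without leukemia library 1 (0.0673) or 2 (0.0644). Myc was at 97.6 and 48.1 RPKM in mock, 88.5 and 99.1 in preleukemia, with 145 and 129 in leukemia, with a limma adjusted p of 0.0505 against mock. The 8 cycling-cell markers summed to 379 to 504 RPKM in mock, 419 to 424 in preleukemia and 319 to 377 in leukemia, and 2 of them, Mcm2 and Mcm5, fell in leukemia against mock. Neither passed without mock library 1 (0.116 and 0.0697), leukemia library 1 (0.0652 and 0.0662) or 2 (0.264 and 0.205), or preleukemia library 1 (0.0945 and 0.0735) or 2 (0.0943 and 0.0733). The part of cell cycling in the lower synthetase levels of leukemia was not tested.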

How the data were processed

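The authors deposited a single table with 1 value per gene and library, read here as RPKM. The unit was taken from the values: times the exon length in GENCODE M21, 64.1% to 65.9% of low values came within 0.02 of a whole number of reads, which gave 16922992 to 21641740 reads per library. Per the labels' protocols, Nucleospin RNA served for the extraction of total RNA and a NEBNext Ultra kit for the libraries. CASAVA 1.8.2 and GRCm38 stand in the submitters' processing notes with no role, and aligner, counter and annotation are not given in the sources used.

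From the deposited RPKM, log2(RPKM + 1) was fitted by limma 3.58.1 (R 4.3.3) over all 6 libraries and 3 groups, with 3 residual degrees of freedom, a prior of 3.7 on average and a trend of the spread with the level. Tested were the 10958 genes that reached 1 RPKM in 2 or more libraries, and p-values were adjusted over all of them by Benjamini-Hochberg. Fold changes on this scale understate the change of low genes. Groups are called separate when both libraries of one lie above both of the other. The fit was tested on simulated data. Gene positions are from GENCODE M21 (GRCm38), promoters from RefSeq, and shared stretches from BLAST 2.17.0.

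Values in every library are given for synthetase genes past the threshold or separate with a log2 fold change of 0.5 or more in size, for the highest and lowest of each compartment, and for at most 4 called genes per other list and comparison. Farsb, Sars, Aimp1, Myc, Atf4 in leukemia, AA474408 and Gm15564 were added after their values were seen. Pycr1 in preleukemia also lies outside the limit of 4. The members and lists were chosen with earlier results of these data known. The alternatives changed the pseudocount, the filter, the scaling, the trend of the spread and the libraries fitted (the 4 compared, or each left out in turn), and added the replicate number as a block. A list of other mitochondrial charging genes and 1 promoter stretch are not reported here.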

Additional observations from a re-analysis of the deposited data

How the results depend on the processing

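With 2 libraries a group, the counts of calls moved with single libraries. Leaving out each library in turn gave 2 to 12 synthetase genes called in leukemia against mock (8 with all), 0 to 8 in preleukemia against mock (3 with all) and 0 to 7 in leukemia against preleukemia (1 with all). For the cytosolic genes these counts ran from 1 to 10, 0 to 4 and 0 to 5 (6, 1 and 1 with all), and for the mitochondrial genes from 1 to 3, 0 to 4 and 0 to 2 (2, 2 and 0 with all). The calls over all genes tested moved likewise, from 1046 to 3848, 520 to 3873 and 430 to 3449 (2809, 2140 and 2006 with all).

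In leukemia against mock a fit of the 4 libraries compared called 5 synthetase genes, 3 of them cytosolic. No filter on low values called 5 (1 mitochondrial), and a filter at 5 RPKM, which left Pars2 untested, called 1 mitochondrial gene. Over all genes tested these settings called 1912 of 10958, 2311 of 19788 and 1971 of 7776 (2809 of 10958 in the main fit). In preleukemia against mock a fit of 4 libraries called 0 synthetase genes, and 1374 of all 10958 genes tested (2140 in the main fit). No filter or a spread without trend called 1 synthetase gene, 0 cytosolic and 1 mitochondrial (1435 of 19788 and 2095 of 10958 over all genes). TMM-like scaling called 5 (3 cytosolic), quantile normalization 2 cytosolic, and a pseudocount of 0.1 gave 1 mitochondrial gene. The calls over all genes were 2116, 2232 and 2021 there. In leukemia against preleukemia a fit of 4 libraries called 7 (5 cytosolic, 2 mitochondrial), TMM-like scaling 2 (2 cytosolic) and quantile normalization 3 (2 cytosolic, 1 mitochondrial). The calls over all genes were 3428, 1902 and 1903 (2006 in the main fit).

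Whether the replicate numbers pair the samples is not in the labels. The deviations of library 1 from its group mean correlated at 0.116 between mock and preleukemia and 0.0125 between mock and leukemia. Between preleukemia and leukemia the value was 0.179. With 2 libraries a group such weak correlations cannot show whether a pairing existed. With the replicate number as a block, 10, 3 and 2 synthetase genes were called in leukemia against mock, preleukemia against mock and leukemia against preleukemia, the last with 1 mitochondrial gene.

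The medians near 0 changed sign. The cytosolic median of preleukemia against mock was 0.000296 without mock library 1, and over single libraries left out it ran from -0.19 to 0.000296. The mitochondrial median of leukemia against mock was 0.0255 without leukemia library 2 and 0.0572 without mock library 1 (range -0.14 to 0.0572). That of preleukemia against mock was -0.0991 without mock library 2 (range -0.0991 to 0.15) and -0.0737 after quantile normalization, and that of leukemia against preleukemia was 0.0986 after quantile normalization and -0.04 to 0.02 over single libraries left out. Quantile normalization moved the median of all genes tested from -0.09 to 0.03 in leukemia against preleukemia. The cytosolic medians of leukemia were below 0 in every alternative, at -0.35 to -0.14 against mock and -0.25 to -0.13 against preleukemia over single libraries left out. Against preleukemia the median was -0.066 with TMM-like scaling and -0.0357 after quantile normalization (-0.154 as deposited). Of 32 named gene and comparison pairs, 0 changed sign in any alternative run, and 6 kept their call in all of those run: Farsa, Lars2 and Slc7a5 in leukemia against mock (15 alternatives), and Asns in both leukemia comparisons and Mycn in leukemia against preleukemia (14, without the filter at 5 RPKM). The cause of the other losses was not tested.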
